A study of Homo sapiens with 20 samples.

Results

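The genes of DNA replication were followed in HEL cells, a human erythroleukaemia line that carries JAK2 V617F, across 10 groups of 2 RNA sequencing libraries. The set holds 53 genes, taken by symbol from a list of replication factors and matched to 1 Ensembl gene each, out of 55093 genes in the largest of the 3 deposited count tables. All 53 were present in each table and all passed the filter on low counts, with a lowest count of 68. The first table held cells kept for 4 h or 48 h in the solvent DMSO or in 1 µM BCI, which blocks the MAP kinase phosphatases DUSP1 and DUSP6. In the second, cells received DMSO, BI-D1870 at 10 µM, which blocks the RSK kinases downstream of ERK, or BI-D1870 at that dose with 1 µM BCI, each for 24 h. The third compared parental cells with cells that persist after long culture with a JAK2 inhibitor, called RuxP (ruxolitinib) and FedP (fedratinib). Every group carries the JAK2 mutation, and there was no untreated group in the first and second tables. How long the persistent cells had been cultured, whether the inhibitor was in the medium at harvest, and whether each is 1 clone or a pool were not stated in the labels. Each group is a duplicate that nothing describes as independent cultures, so the p-values reflect variation between libraries, which may be technical. The labels give 48 h for 4 libraries of the first table whose column headings read 24 h, and the labels were followed.

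Replication starts in G1, when the origin recognition complex (ORC), CDC6 and CDT1 load the MCM2 to MCM7 helicase onto DNA, and geminin (GMNN) blocks loading after S phase has begun. At S phase entry, cyclin E and E2F1 activity rises, the kinase CDC7 with DBF4 fires origins, and CDC45 and the GINS complex join the helicase, after which polymerases, the clamp PCNA and its loader RFC copy the DNA. E2F factors are known to drive many of these genes, and replication genes as a group are high in dividing blood progenitors and leukaemia lines.

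Because E2F sites are the promoter feature for which these genes are best known, 3 promoters with a match are printed, with the E2F matches in capitals. Each window is the 250 bases upstream of the RefSeq start (RefSeq table, build GRCh38.p14), 5′ to 3′ on the strand of the gene. Matches are to TTTCCCGC, TTTCGCGC, TTTGCCGC or TTTGGCGC on either strand, and overlapping matches run together. MCM6, a helicase subunit, had 4 matches in chr2:135876444-135876693 (minus strand). PCNA had 1 in chr20:5126623-5126872 (minus strand), and E2F1, whose protein binds such sites, had 2 in chr20:33686386-33686635 (minus strand).
MCM6: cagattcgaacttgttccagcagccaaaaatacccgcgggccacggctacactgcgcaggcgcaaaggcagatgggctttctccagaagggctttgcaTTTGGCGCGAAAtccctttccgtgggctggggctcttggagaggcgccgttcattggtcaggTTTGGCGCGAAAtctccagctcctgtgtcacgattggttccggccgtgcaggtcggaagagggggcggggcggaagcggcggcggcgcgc
PCNA: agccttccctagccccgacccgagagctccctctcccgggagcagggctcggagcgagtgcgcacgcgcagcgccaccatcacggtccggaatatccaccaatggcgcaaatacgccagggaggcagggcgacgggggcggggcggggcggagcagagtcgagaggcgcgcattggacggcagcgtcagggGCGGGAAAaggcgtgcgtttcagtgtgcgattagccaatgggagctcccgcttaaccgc
E2F1: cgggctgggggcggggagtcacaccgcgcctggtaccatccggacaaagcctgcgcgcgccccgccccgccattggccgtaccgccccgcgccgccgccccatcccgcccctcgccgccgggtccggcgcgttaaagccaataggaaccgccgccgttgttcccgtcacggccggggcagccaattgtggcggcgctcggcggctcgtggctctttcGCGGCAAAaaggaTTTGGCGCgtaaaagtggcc
MCM7, the helicase subunit on which several results turn, had 2 matches, 1 of them beside the start. The last 30 bases before its start, at chr7:100101398-100101427 (minus strand), are shown because that match lies there. This RefSeq start lies within the longer span that GENCODE gives the gene.
MCM7: ccggtcacgtggggggcgacgTTTCGCGCc
Of the 53 genes, 46 matched a promoter in the table, and MCM4, MCM5, GINS4, POLD3, RPA2, RPA3 and CCNE2 did not. An E2F match was found in 15 of the 46 (32.6%), against 761 of 27305 (2.79%) of all promoters in the table. CCAAT, another promoter word, stood in 26 of 46 (56.5%) on either strand, against 33.0% of all. Those with 1 match, beside PCNA, were MCM3, ORC3, CDT1, GINS2, POLA1, POLA2, POLE, RFC3, LIG1, TYMS and UHRF1. Neither the CDC6 nor the CDC45 window held an E2F match. These are matches of letters and were not tested for binding.

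Total counts per library ranged from 63916850 to 84452743 with BCI, from 54141164 to 70128404 with BI-D1870 and from 51799814 to 79755715 in the persistent cells. Levels are given as CPM, the count scaled to a common library size after TMM normalization, and libraries are compared only within a table. Markers of an erythroid and megakaryocytic line were checked: HBG2, GATA1 and ITGA2B were present in all libraries of the first table, while MPO, ELANE, CD3D, CD3E and MS4A1 were each at or below 0.25 CPM there. Against the line's type, the erythroid chaperone AHSP was at or below 0.19 CPM, and LYZ (21.2 to 26.0 CPM), CD2 (8.63 to 22.0 CPM) and KRT18 (19.2 to 26.7 CPM) were detected. Marker levels in the persistent cells are given with their results. The spread between replicates (biological coefficient of variation) was 13.3%, 5.01% and 26.9% in the 3 tables, so a change had to be larger in the third to be called. Counts of TYMS (46.6% of exonic bases shared with ENOSF1 and TYMSOS on the opposite strand), CCNE2 (37.1%), POLA2 (35.1%), MCM2 (23.6%), GINS4 (23.6%), PRIM1 (21.6%) and RRM2 (20.2%) overlap other genes and are uncertain to that extent. Per kilobase of exon, MCM2 to MCM7 lay between 44.8 and 114 CPM per kb in DMSO at 4 h, CDT1 was at 93.0 CPM per kb, and the 5 ORC genes lay between 2.89 and 24.6 CPM per kb.

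**Figure D1:**
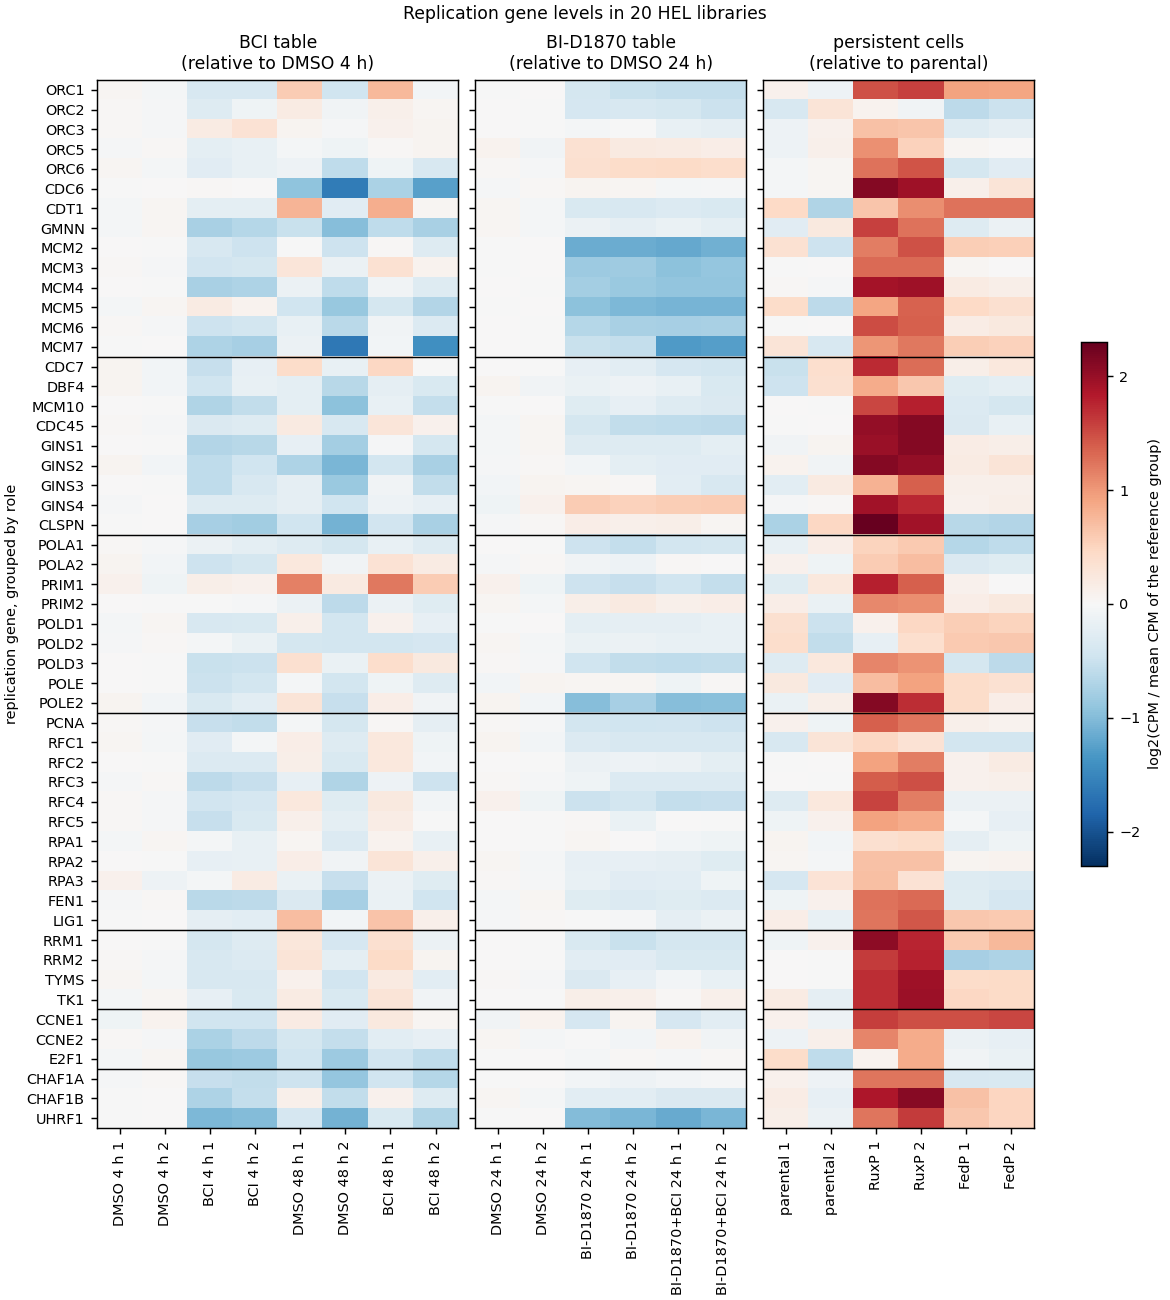
Level of each of the 53 replication genes (rows, grouped by role) in each of the 20 libraries (columns), as log2 of CPM over the mean CPM of DMSO 4 h, DMSO 24 h or parental in the same table. Both RuxP libraries are above parental for 49 of the 53 genes, BCI at 4 h is below DMSO for 47, and BI-D1870 is lowest for MCM2 and UHRF1.

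Ruxolitinib-persistent cells held more RNA of most replication genes than parental cells. The 53 genes together made up 1362 and 1268 CPM in the parental libraries and 2853 and 2944 CPM in RuxP. By edgeR's quasi-likelihood test with Benjamini-Hochberg adjustment over all genes (called at adjusted p under 0.05), 35 of 53 rose and none fell, where 4.28% of the 15924 genes tested were called higher, 2.17% lower and 6.44% in either direction. The median log2 fold change was 1.31 for the replication genes and -0.04 for all genes, and 33 of the 35 rose at least 2-fold. All 53 estimates were positive, and in 49 both RuxP libraries lay above both parental libraries (the exceptions were ORC2, POLD1, POLD2 and E2F1). In bulk RNA, more cells in S phase and more RNA per cycling cell cannot be told apart.

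Of the 14 licensing genes, 8 rose. CDC6, the ATPase that helps load the helicase (chr17:40287633-40304657, plus strand), measured 8.19 and 8.82 CPM in the parental libraries and 36.9 and 32.8 CPM in RuxP, a log2 fold change of 2.04 (SE 0.17, adjusted p = 0.00445). Each RuxP library was above each parental one. MCM4, a helicase subunit, went from 63.6 and 61.4 to 235 and 242 CPM, with a log2 fold change of 1.93 (SE 0.14, adjusted p = 0.00386). MCM3 reached 2.47-fold, MCM6 2.71-fold, ORC1 2.88-fold, ORC6 2.55-fold and GMNN 2.67-fold. MCM7 (chr7:100092728-100101940, minus strand) was 54.6 and 34.8 CPM in parental and 89.9 and 104 CPM in RuxP, with no overlap, and its call was close to the threshold: the log2 fold change was 1.11 (SE 0.24, adjusted p = 0.0497) and it was called in 2 of the 6 fits that left out 1 library. The helicase subunits MCM2 and MCM5 were also higher in both RuxP libraries but were not called (log2 fold change 1.33 with SE 0.29 and adjusted p = 0.0513 for MCM2, 1.14 with SE 0.35 and adjusted p = 0.115 for MCM5). Their parental libraries differed widely, with 87.6 and 49.1 CPM for MCM2 and 52.2 and 25.7 CPM for MCM5. ORC2, a core ORC subunit, overlapped between the groups, at 42.1 and 66.8 CPM in parental and 57.8 and 51.2 CPM in RuxP. ORC3 (0.66), ORC5 (0.82) and CDT1 (0.87, log2 scale) were the remaining licensing genes without a call.

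Among the 9 genes that fire origins or activate the helicase, 7 rose, with the median log2 fold change at 1.84. CDC45, which travels with the active helicase (chr22:19479459-19520612, plus strand), measured 4.65 and 4.75 CPM in parental and 19.1 and 20.4 CPM in RuxP, 4.21-fold higher (log2 fold change 2.07, SE 0.18, adjusted p = 0.00445). GINS1, GINS2 and GINS4, subunits of the GINS complex, rose 4.15-fold, 4.17-fold and 3.57-fold, with GINS2 at 2.54 and 2.27 CPM in parental and 10.3 and 9.70 CPM in RuxP. MCM10, which helps activate the helicase, rose 3.18-fold, from 13.6 and 13.6 to 39.4 and 47.2 CPM, and CDC7, the origin firing kinase, 2.86-fold. CLSPN, the mediator of the replication checkpoint, had the highest estimate of all 53 but unequal libraries, 16.2 and 37.8 CPM in parental and 147 and 103 CPM in RuxP, and a larger error (log2 fold change 2.21, SE 0.41, adjusted p = 0.0334). DBF4, the activating subunit of CDC7, and GINS3 were not called (adjusted p = 0.19 and 0.117).

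Among genes of the copying machinery, called genes were fewer for the polymerases than for the clamp group. Of 9 polymerase and primase genes, 4 rose: POLE2 (3.78-fold), PRIM1 (3.02-fold), PRIM2 (2.13-fold) and POLD3 (2.12-fold). POLD1 and POLD2, the catalytic and a small subunit of polymerase delta, were not separated between the groups: POLD2 was 52.0 and 26.7 CPM in parental and 34.5 and 51.4 CPM in RuxP. Of 11 genes of the clamp, its loader, single-strand binding and nick processing, 8 rose. PCNA, the sliding clamp, went from 23.8 and 20.8 to 57.8 and 52.2 CPM (log2 fold change 1.30, SE 0.16, adjusted p = 0.00936), and FEN1 and LIG1, which trim and seal Okazaki fragments, rose 2.42-fold and 2.52-fold. The clamp loader subunits RFC2 to RFC5 rose between 1.85-fold and 2.72-fold and RPA2, of the single-strand binding complex, 1.60-fold. RFC1 (0.41), RPA1 (0.39) and RPA3 (0.52) had log2 fold changes that were not called, as had POLA1 (0.56), POLA2 (0.65) and POLE (0.82) among the polymerases.

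All 4 nucleotide synthesis genes rose. RRM1 and RRM2, the subunits of ribonucleotide reductase, rose 3.75-fold and 3.23-fold, TYMS, thymidylate synthase, 3.54-fold and TK1, thymidine kinase, 3.57-fold. RRM2 was 40.7 and 40.5 CPM in parental and 123 and 139 CPM in RuxP. The chromatin genes CHAF1A, CHAF1B and UHRF1 all rose, CHAF1B, a subunit of the histone chaperone CAF-1, the most (3.95-fold). Of the 3 regulators of S phase entry, only CCNE1, cyclin E1, was called, with 1.53 and 1.32 CPM in parental and 4.31 and 3.99 CPM in RuxP (log2 fold change 1.54, SE 0.24, adjusted p = 0.0203). CCNE2, cyclin E2, was not (log2 fold change 1.00, SE 0.23, adjusted p = 0.0614). E2F1 was 27.5 and 13.7 CPM in parental and 21.8 and 37.2 CPM in RuxP, so its groups overlapped (log2 fold change 0.52, SE 0.38, adjusted p = 0.453).

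Calls depended on single libraries: with RuxP replicate 1 left out 11 of the 53 were called, with RuxP replicate 2 left out 19, and with parental replicate 1 or 2 left out 40 or 43. The 11 called in each of the 6 fits that left out 1 library were CDC6, MCM4, MCM10, CDC45, GINS1, GINS2, GINS4, RRM1, RRM2, TYMS and CHAF1B. The mitochondrial share of counts was 15.6% and 23.6% in parental, 25.7% and 23.1% in RuxP and 12.4% and 12.6% in FedP. Of 10 erythroid markers 9 were over 1 CPM in each library of this table, with AHSP below it, and they summed to 1985 and 1424 CPM in parental, 1164 and 1246 CPM in RuxP and 2199.7 and 2141 CPM in FedP. All 5 megakaryocyte markers were present and summed to 3848 and 2495 CPM in parental, 1216 and 1515 CPM in RuxP and 2449 and 2376 CPM in FedP, so that both sums were lower in RuxP than in the other groups. Summed monocyte and granulocyte markers lay between 56.2 and 64.0 CPM, lymphoid markers between 4.91 and 13.7 CPM and epithelial and stromal markers between 17.8 and 57.3 CPM over the 6 libraries. The part of the mitochondrial share and of these markers in the results was not tested.

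**Figure D2:**
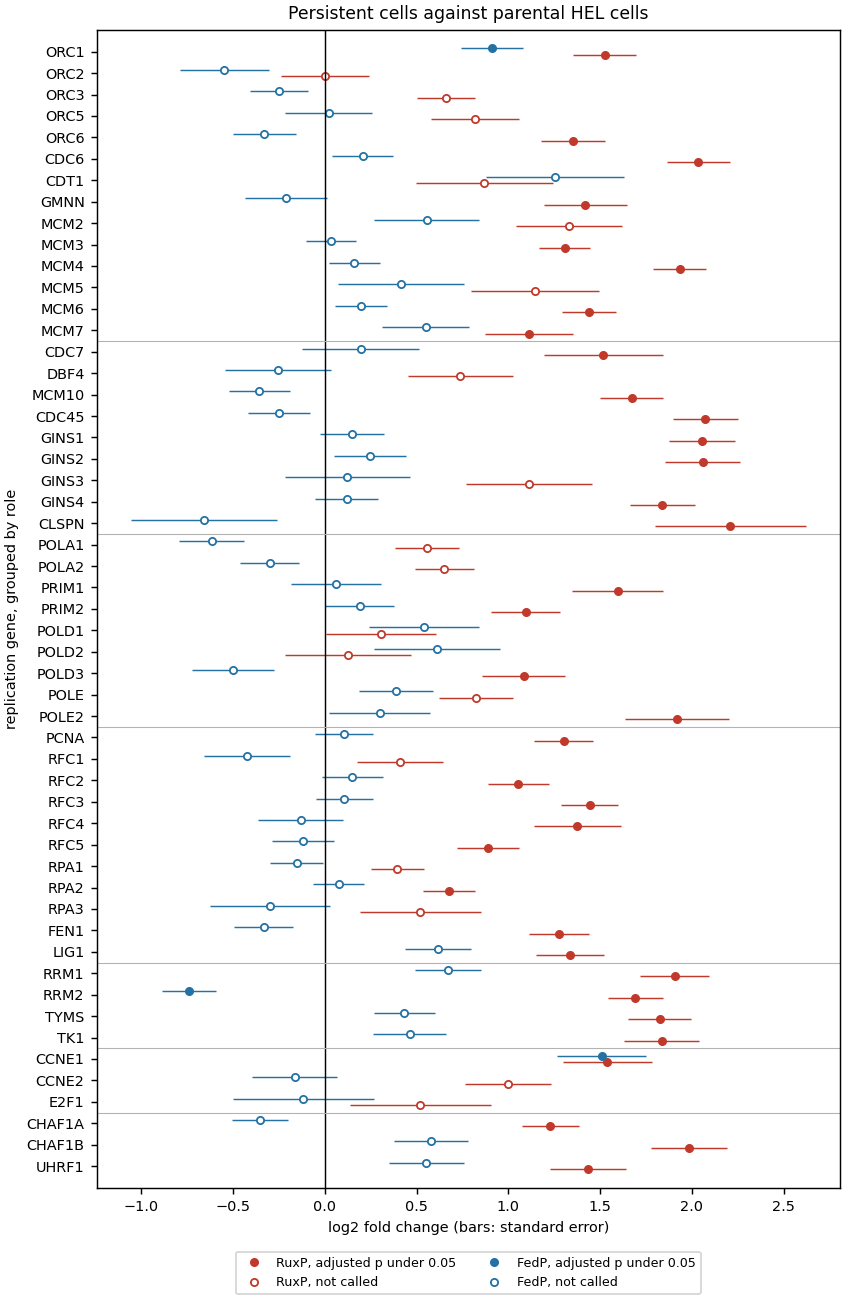
Log2 fold change against parental cells for each of the 53 replication genes in RuxP (red) and FedP (blue), with bars for the standard error and filled points for adjusted p under 0.05, grouped by role. RuxP points lie to the right of 0 with 35 filled, while FedP points scatter around 0 with 3 filled.

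In fedratinib-persistent cells few replication genes were called against parental cells. The replication genes summed to 1466 and 1462 CPM, and 2 were called higher and 1 lower, where 3.84% of all genes were called higher, 2.79% lower and 6.63% in either direction. The median log2 fold change was 0.11, against 0.01 for all genes. CCNE1 was 4.00 and 4.12 CPM in FedP against 1.53 and 1.32 CPM in parental cells (log2 fold change 1.51, SE 0.24, adjusted p = 0.0217), beside 1.54 for RuxP against the same parental libraries. ORC1, the largest ORC subunit, rose from 6.94 and 6.01 to 12.3 and 12.1 CPM (log2 fold change 0.91, SE 0.17, adjusted p = 0.0333). RRM2 fell from 40.7 and 40.5 to 23.9 and 24.7 CPM (log2 fold change -0.74, SE 0.15, adjusted p = 0.0405). For these 3 genes no library of one group reached the other group. CDC6 (9.19 and 10.4 CPM), CDC45 (3.73 and 4.17 CPM) and MCM7 (66.3 and 64.5 CPM) were not called, with log2 fold changes of 0.21, -0.25 and 0.55. CDT1, the loading factor, had the highest estimate without a call (1.26): it was 110.1 and 110.4 CPM in FedP and 63.6 and 28.7 CPM in parental. The calls changed with single libraries: leaving out either FedP library gave 0, either RuxP library 1, and parental replicate 1 gave 19. With total counts in place of TMM there were 3 higher and 0 lower, and the median log2 fold change of all genes was then 0.18.

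Set directly against RuxP, FedP held less RNA of the same pathway. The 2 comparisons with parental cells share their controls, and FedP against RuxP shares libraries with both, so the 3 are not independent. Here 25 of 53 fell and none rose, where 1.16% of all genes were called lower, 0.232% higher and 1.39% in either direction, with a median log2 difference of -1.17 against 0.04 for all genes. Both FedP libraries were below both RuxP libraries for 49 genes. RRM2 differed by -2.43 (SE 0.15, adjusted p = 0.0183) on the log2 scale, CDC45 by -2.32 (SE 0.18, adjusted p = 0.0183) and CLSPN by -2.87 (SE 0.42, adjusted p = 0.0411). CDC6 was 3.56-fold and MCM4 3.42-fold lower, while MCM7 was not called (log2 fold change -0.57, SE 0.24, adjusted p = 0.161). CDT1, POLD1 and POLD2 went the other way, with both FedP libraries above both RuxP libraries, and were not called. CCNE1 was the only gene whose libraries overlapped, at 4.00 and 4.12 CPM in FedP and 4.31 and 3.99 CPM in RuxP. By role, 6 of 14 licensing genes, 6 of 9 firing genes, 3 of 9 polymerase genes, 4 of 11 clamp and nick genes, 4 of 4 nucleotide genes, 2 of 3 chromatin genes and 0 of 3 entry regulators fell. Genes of mitosis differed too, with 13 of 20 lower and a median of -1.57. The calls rested on every persistent library: 0 were made when any RuxP or FedP library was left out, with the median between -1.09 and -1.20, and 48 and 45 were called without parental replicate 1 and 2.

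The wider replication network, in lists that hold none of the 53 genes, was counted beside them in RuxP. Of other licensing and firing genes 7 of 17 tested rose, of other polymerase, clamp loader and fork genes 7 of 21, of other nucleotide supply genes 2 of 12, of checkpoint genes 3 of 10, of other replication-coupled chromatin genes 6 of 13 and of E2F and RB family regulators 4 of 16. None of these fell. Of all genes 4.28% were called higher, and the lists were not tested against this share. PCLAF, a PCNA-binding factor, had a log2 fold change of 2.27 (SE 0.20, adjusted p = 0.00445), HELLS, a chromatin remodeller, 2.13 (SE 0.19, adjusted p = 0.00445), and CHEK1, the checkpoint kinase, 1.64 (SE 0.21, adjusted p = 0.0101). In the same cells 16 of 20 mitosis genes rose, with a median of 1.87. In FedP against parental cells, 1 mitosis gene rose and 1 fell.

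With BI-D1870, genes of the MCM2 to MCM7 helicase were lower, as were UHRF1 and POLE2, and the S phase entry genes were not called. Summed over the 53 genes, the DMSO libraries held 7528 and 7470 CPM, the BI-D1870 libraries 5723 and 5612 CPM and the libraries with both drugs 5386 and 5416 CPM. With BI-D1870 alone 32 replication genes fell and 6 rose, where 24.3% of the 21328 genes tested were called lower, 22.8% higher and 47.1% in either direction. The replicates of this table were close, so small changes were called too, and only MCM2 and UHRF1 changed at least 2-fold. The median log2 fold change was -0.22, against -0.01 for all genes. The mitochondrial share was 3.58% and 3.64% in DMSO, 6.17% and 6.20% with BI-D1870 and 5.72% and 5.28% with both drugs, and its part was not tested. Summed erythroid markers were 4126 and 4266 CPM in DMSO, 3207 and 3309 CPM with BI-D1870 and 2373 and 2654 CPM with both drugs. Summed megakaryocyte markers were 1794 and 1786 CPM, 1458 and 1462 CPM, and 1499.7 and 1570.5 CPM in the same order. The part of these markers was not tested.

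All 6 helicase subunits fell. MCM2 measured 568 and 572 CPM in DMSO and 259.7 and 259.5 CPM with BI-D1870, a log2 fold change of -1.13 (SE 0.039, adjusted p = 1.92e-14). MCM5 went from 396 and 397 to 207 and 193 CPM (log2 fold change -0.99, SE 0.041, adjusted p = 2.43e-13). MCM3, MCM4 and MCM6 were lower by 1.77-fold, 1.76-fold and 1.62-fold. MCM7 was the least changed of the 6, at 332 and 325 CPM in DMSO and 229 and 226 CPM with BI-D1870 (log2 fold change -0.53, SE 0.039, adjusted p = 8.31e-10). In each of these genes both treated libraries lay below both DMSO libraries. Other licensing genes split: ORC1, ORC2, CDT1 and GMNN fell, ORC5 and ORC6 rose (log2 fold change 0.28 and 0.39), and CDC6, at 79.3 and 81.7 CPM in DMSO and 83.8 and 82.7 CPM with BI-D1870, was not called (log2 fold change 0.049, SE 0.045, adjusted p = 0.412).

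Outside licensing, UHRF1, which guides maintenance of DNA methylation at the fork, went from 112 and 113 to 56.7 and 54.1 CPM (log2 fold change -1.02, SE 0.05, adjusted p = 2.89e-12). POLE2, the second subunit of polymerase epsilon, fell 1.82-fold, from 27.2 and 24.8 to 13.2 and 15.3 CPM. Both were among the larger falls. CDC45 fell from 44.5 and 47.1 to 34.7 and 30.8 CPM (log2 fold change -0.48, SE 0.065, adjusted p = 3.62e-06), PCNA from 191 and 184 to 139.9 and 137 CPM (log2 fold change -0.44, SE 0.041, adjusted p = 3.12e-08) and RRM1 1.35-fold. GINS4 rose from 42.6 and 49.1 to 68.4 and 65.9 CPM (log2 fold change 0.55, SE 0.059, adjusted p = 2.15e-07), opposite to GINS1 (-0.29) in the same complex. PRIM2, CLSPN and TK1 rose by 0.17, 0.13 and 0.13 on the log2 scale. The S phase entry genes CCNE1 (-0.14), CCNE2 (-0.031) and E2F1 (-0.0039, log2 scale) were not called by edgeR, none with an unadjusted p under 0.05, and E2F1 stood at 83.6 and 85.5 CPM in DMSO and 82.3 and 86.3 CPM with the drug. In the wider network, E2F8, a repressor of the E2F family, fell from 20.3 to 5.83 CPM (means of 2; log2 fold change -1.80, SE 0.10, adjusted p = 1.97e-11), and SAMHD1, which degrades nucleotides, rose by 1.29 on the log2 scale. By count, 10 of 18 other licensing and firing genes fell and 4 rose, 7 of 21 fork genes fell and 9 rose, 6 of 12 nucleotide supply genes fell and 4 rose, 3 of 10 checkpoint genes fell and 4 rose, 10 of 13 chromatin genes fell and 3 rose, and 4 of 16 E2F and RB family genes fell and 3 rose. Of 20 mitosis genes 11 fell and 4 rose. Of all genes 24.3% were called lower and 22.8% higher, and the lists were not tested against these shares.

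With BCI added to BI-D1870, 37 fell and 2 rose against DMSO (24.3% of all genes lower, 22.6% higher, 46.8% in either direction). The BI-D1870 and combination comparisons share the DMSO libraries, and BCI alone was not given in this table. The direct comparison of the combination with BI-D1870 called 3 replication genes, all lower, where 2.48% of all genes were called lower, 2.22% higher and 4.71% in either direction. MCM7 had the largest change of the 53. It measured 229 and 226 CPM with BI-D1870 and 133 and 136 CPM with both drugs, a further log2 change of -0.76 (SE 0.039, adjusted p = 3.23e-10), with no overlap between libraries. The other helicase subunits had small estimates: MCM2 was 259.7 and 259.5 CPM with BI-D1870 and 252 and 266 CPM with both drugs, and the log2 changes of MCM2 to MCM6 lay between -0.093 and -0.0029, none called. This call of MCM7 against BI-D1870 held in all 6 fits that left out 1 library and in all 9 other settings. All of these reuse the same duplicates, so they do not show how MCM7 varies between cultures. In the first table MCM7 was 319 and 112 CPM in the replicates of DMSO at 48 h. Against DMSO, the log2 fold change of MCM7 with both drugs was -1.29 (SE 0.039, adjusted p = 2.77e-15), the largest fall of the 53. CDC6 was 78.5 and 79.5 CPM with both drugs and was not called against DMSO (-0.027) or BI-D1870 (-0.077). CDC45 was 30.7 and 30.1 CPM, with log2 fold changes of -0.59 (SE 0.065, adjusted p = 2.29e-07) against DMSO and -0.11 (SE 0.066, adjusted p = 0.448) against BI-D1870. AP4M1, on the opposite strand over 8.94% of the exonic bases of MCM7, was 5.96 to 7.60 CPM in the libraries with BI-D1870. GINS3, a GINS subunit (12.4 and 12.2 CPM to 10.1 and 9.29 CPM) and CDC7 (50.5 and 48.7 to 44.1 and 43.1 CPM) were called at adjusted p = 0.0473 and 0.0493. Without any one of the BI-D1870 or combination libraries only MCM7 was called, and without either DMSO library 4 genes were.

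**Figure D3:**
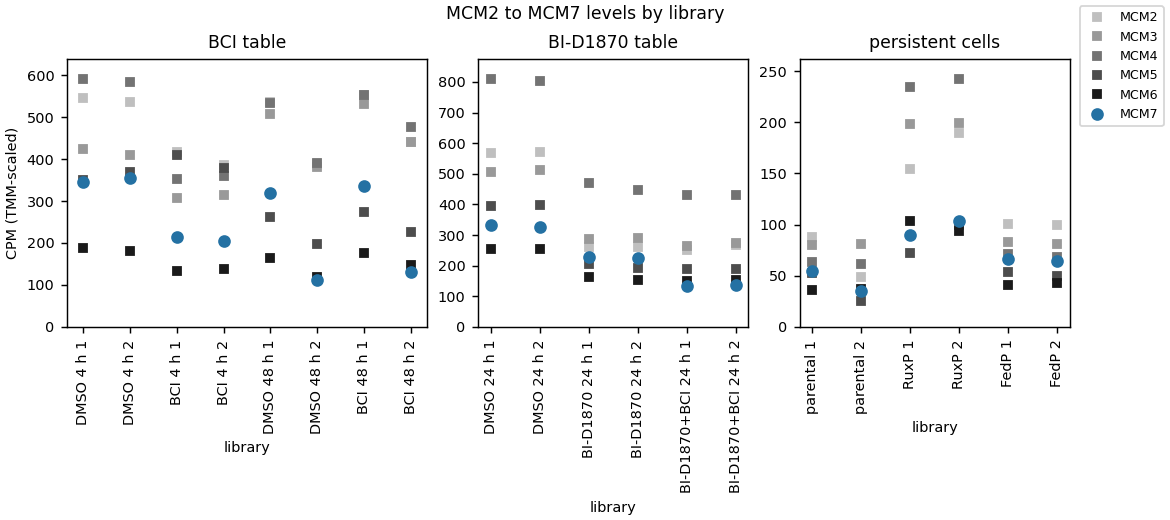
Levels of MCM2 to MCM7 in every library of the 3 tables (x axis: library; y axis: TMM-scaled CPM from 0; MCM7 as blue circles, the other subunits as grey squares). In the BI-D1870 table MCM7 lies below MCM6 in the 2 libraries with both drugs (133 and 136 CPM) and above it in the other 4, and in the BCI table it lies below MCM6 in the second libraries of DMSO 48 h and BCI 48 h (112 and 132 CPM), as in the persistent table in parental replicate 2 and RuxP replicate 1.

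With BCI for 4 h, genes from S phase entry to the clamp were lower. The replication genes summed to 6292 and 6311 CPM in DMSO and 4799 and 4787 CPM with BCI. Of the 53, 11 fell and none rose, where 5.94% of the 21908 genes tested were called lower, 4.8% higher and 10.7% in either direction. The median was -0.36, against 0.02 for all genes, and 47 genes had both BCI libraries below both DMSO libraries. Of the 20 mitosis genes none was called by edgeR, 2 had an unadjusted p under 0.05, and their median was 0.05.

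The regulators of S phase entry were among the called. E2F1 measured 146 and 154 CPM in DMSO and 81.7 and 84.1 CPM with BCI, a log2 fold change of -0.86 (SE 0.12, adjusted p = 0.00191). CCNE2 went from 13.7 and 13.3 to 8.17 and 8.89 CPM (log2 fold change -0.67, SE 0.11, adjusted p = 0.00622). For both, each BCI library was below each DMSO library. CCNE1 was not called (log2 fold change -0.46, SE 0.16, adjusted p = 0.101). UHRF1 had the largest fall, from 119 and 122 to 59.0 and 60.6 CPM (log2 fold change -1.01, SE 0.19, adjusted p = 0.0106), and CHAF1A, the large subunit of CAF-1, fell 1.46-fold.

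In licensing, MCM4 fell from 591 and 584 to 351 and 358 CPM (log2 fold change -0.73, SE 0.13, adjusted p = 0.00822) and GMNN from 55.3 and 59.0 to 34.1 and 36.1 CPM (log2 fold change -0.70, SE 0.14, adjusted p = 0.0122). MCM7 had a like estimate, with levels of 346 and 354 CPM in DMSO and 214 and 206 CPM with BCI and no overlap, but its standard error was 0.46 and it was not called (log2 fold change -0.74, adjusted p = 0.393). For every gene the error is estimated over all 8 libraries of the table, and MCM7 differed widely between the 48 h replicates. MCM2, MCM3 and MCM6 were not called, with log2 fold changes of -0.43, -0.42 and -0.45 and both BCI libraries below both DMSO libraries. CDC6 overlapped between the groups, at 124 and 127 CPM in DMSO and 128 and 126 CPM with BCI. MCM5 and ORC3 had estimates above 0 (0.13 and 0.26, not called), with both BCI libraries above both DMSO libraries. MCM5 was 351 and 369 CPM in DMSO and 409 and 379 CPM with BCI, and ORC3 27.2 and 26.2 CPM and 30.3 and 33.5 CPM. CDC45 was 37.8 and 36.2 CPM in DMSO and 29.5 and 30.0 CPM with BCI (log2 fold change -0.32, SE 0.16, adjusted p = 0.279). Further down the pathway CLSPN (-0.78), FEN1 (-0.60), PCNA (-0.55), POLE, the catalytic subunit of polymerase epsilon (-0.46), and POLA2, a subunit of polymerase alpha (-0.44), fell on the log2 scale. The 4 nucleotide synthesis genes had estimates between -0.36 and -0.27, none called by edgeR and none with an unadjusted p under 0.05. In all 4, both BCI libraries were below both DMSO libraries. Their errors also draw on the 48 h libraries, which were split by replicate.

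E2F1 was the 1 gene called in all 8 fits that left out 1 library, with a highest adjusted p of 0.0442. Leaving out DMSO 4 h replicate 1, DMSO 4 h replicate 2 or BCI 4 h replicate 1 left 1 call and BCI 4 h replicate 2 left 2, while leaving out DMSO 48 h replicate 1 or 2 gave 25 or 27. Fitting only the 4 libraries of the 4 h comparison called 41, of which 40 were lower and 1 (ORC3) higher, and DESeq2 called 22. Calls over all genes rose too. They were 5691 of 20121 with the 4 libraries and 2940 of 21908 with DESeq2, against 2354 of 21908 in the main fit. At 4 h 5.94% of all genes were called lower, and the lists of the wider network were not tested against this share. In the wider network 2 of 18 other licensing and firing genes, 4 of 21 fork genes, 1 of 12 nucleotide supply genes, 1 of 10 checkpoint genes, 4 of 13 chromatin genes and 3 of 16 E2F and RB family genes fell. They included CDCA7, a chromatin factor (-0.98), E2F7 (-0.83), MCMBP, an MCM-binding protein (-0.70), and DCTPP1, a nucleotide pyrophosphatase (-0.64), on the log2 scale. ASF1A, a histone chaperone, rose from 12.7 to 25.3 CPM (means of 2; log2 fold change 0.99, SE 0.13, adjusted p = 0.00149).

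**Figure D4:**
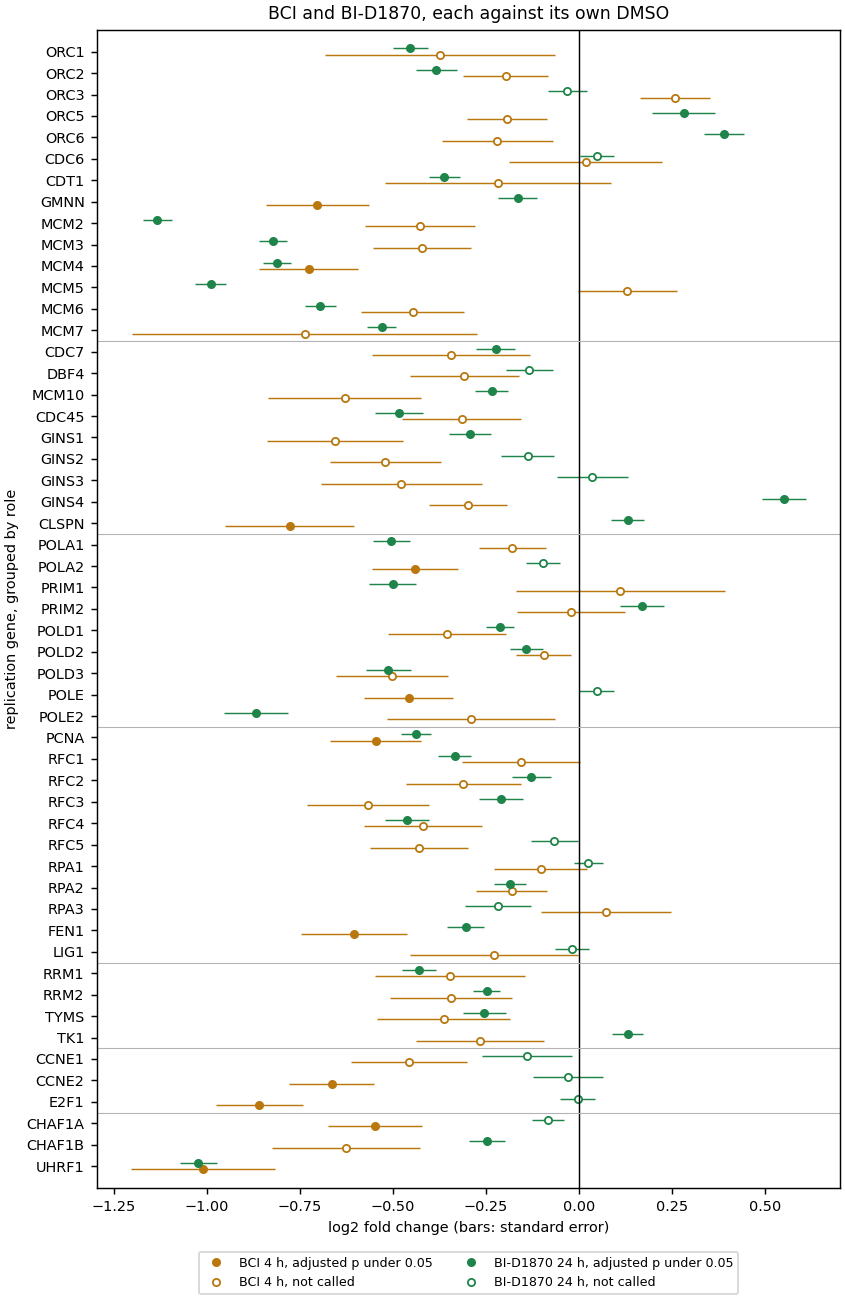
Log2 fold changes for each of the 53 replication genes for BCI at 4 h (orange) and BI-D1870 at 24 h (green), each against its own DMSO, with standard error bars and filled points for adjusted p under 0.05. UHRF1, MCM4, GMNN, PCNA, FEN1 and CLSPN are filled for both drugs, CLSPN with opposite signs (-0.78 for BCI, 0.13 for BI-D1870). E2F1, CCNE2, POLA2, POLE and CHAF1A are filled only for BCI. Those filled only for BI-D1870 include MCM2, MCM3, MCM5 and MCM6, and the drugs were not tested against each other. For BCI the estimates of MCM2, MCM3 and MCM6 also lie below 0 (-0.43, -0.42 and -0.45). The median standard error of the 53 was 0.15 for BCI and 0.05 for BI-D1870.

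At 48 h no replication gene was called between BCI and DMSO, by edgeR, DESeq2 or limma-voom, and none had an unadjusted p under 0.05, where 0 of all genes were called (0%) and 316 had an unadjusted p under 0.05. All 53 estimates were above 0, with a median of 0.14, but the libraries were split by replicate. Replicate 1 was above replicate 2 for 53 of 53 genes in DMSO and 50 of 53 in BCI, with median differences of 0.46 and 0.27 in log2 of CPM plus 0.5, and for 20 of 20 mitosis genes in both. The mitochondrial share was 3.81% and 4.68% in DMSO and 3.44% and 4.47% with BCI at 48 h. At 4 h it was 3.62% and 3.67% in DMSO and 3.26% and 4.37% with BCI. There replicate 1 was above replicate 2 for 33 of 53 genes in DMSO and 17 of 53 in BCI. The part of the mitochondrial share was not tested. MCM7 was 319 and 112 CPM in DMSO and 336 and 132 CPM with BCI, so its replicates differed far more than its groups. CDC6 was 66.1 and 41.5 CPM in DMSO and 75.9 and 53.1 CPM with BCI, and CDC45 was 42.5 and 28.7 CPM in DMSO and 45.02 and 39.5 CPM with BCI. In these 3 genes replicate 1 was above replicate 2 in both groups, and BCI was above DMSO within each replicate number. The replication genes summed to 6397 and 4388 CPM in DMSO and 6654 and 5170 CPM with BCI. Over all genes, the replicate differences of the 2 groups correlated at 0.59. The main fit did not pair libraries, a replicate block over all groups of the table gave 0 calls, and pairing at 48 h alone was not tested. The median estimate was -0.07 without DMSO 48 h replicate 2, -0.0050 without BCI 48 h replicate 1, and 0.41 without DMSO 48 h replicate 1.

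**Figure D5:**
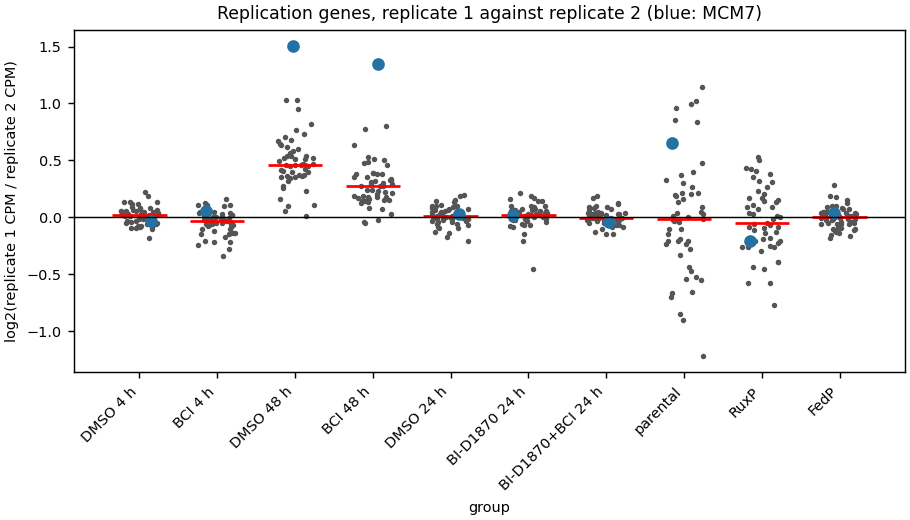
Log2 ratio of replicate 1 to replicate 2 CPM for the 53 replication genes in each of the 10 groups (points: genes; red lines: medians; blue: MCM7). Points lie above 0 for 53 of 53 genes in DMSO 48 h and 50 of 53 in BCI 48 h, and MCM7 is the highest point in both.

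The response at 48 h minus that at 4 h was tested directly. It was positive for 51 of 53 genes and called for 4, where 2.08% of all genes were called higher, 1.37% lower and 3.46% in either direction. For E2F1 the difference was 0.99 (SE 0.16, adjusted p = 0.014) on the log2 scale and for CCNE2 0.92 (SE 0.16, adjusted p = 0.017). For MCM4 it was 0.88 (SE 0.19, adjusted p = 0.0349) and for UHRF1 1.20 (SE 0.27, adjusted p = 0.0458). All 4 fell at 4 h. None of the 4 was called when any 4 h library was left out. Without DMSO 48 h replicate 1 there were 37 calls, and without BCI 48 h replicate 1 there were 2.

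Some replication genes also differed between the DMSO groups, at a called share close to that of all genes. From 4 h to 48 h, 13 fell and none rose, where 13.2% of all genes were called lower, 13.5% higher and 26.6% in either direction, while 24.5% of the replication genes were called, all of them lower. CDC6 led, from 124 and 127 to 66.1 and 41.5 CPM (log2 fold change -1.23, SE 0.21, adjusted p = 0.00283). GINS2 went from 27.2 and 24.7 to 15.9 and 12.5 CPM (log2 fold change -0.87, SE 0.15, adjusted p = 0.00296), MCM5 from 351 and 369 to 261 and 198 CPM (log2 fold change -0.65, SE 0.13, adjusted p = 0.00666) and E2F1 from 146 and 154 to 109 and 84.3 CPM (log2 fold change -0.64, SE 0.12, adjusted p = 0.00383). In all 4 of these both 48 h libraries were below both 4 h libraries. PRIM1, a primase subunit, had the highest estimate, 0.76, and was not called. MCM7 (log2 fold change -0.70, SE 0.46, adjusted p = 0.31) and CDC45 (log2 fold change -0.056, SE 0.16, adjusted p = 0.832) were not called either. Without DMSO 4 h replicate 1 or 2 there were 7 or 4 calls, and without DMSO 48 h replicate 1 there were 30, all lower. Without DMSO 48 h replicate 2 there were 4 higher (CDT1, LIG1, POLD3 and PRIM1) and 9 lower, and the median was -0.04 in place of -0.21. The calls in all 8 fits that left out 1 library were CDC6, GINS2, E2F1 and CHAF1A. Of the 20 mitosis genes 4 fell and none rose. With total counts in place of TMM, 1 (PRIM1) rose and 11 fell, and the median of all genes was 0.14 rather than 0.04.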

How the data were processed

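The authors deposited raw read counts per gene in 3 tables. The submitters' processing notes name bcl2fastq, STAR 2.5.1a, edgeR and the build GRCh38, while the counting program, annotation release and strand setting are not given in the sources read for this text. Each table was fitted alone with edgeR 4.0.16 (R 4.3.3): low counts removed with filterByExpr, TMM scaling, all groups in 1 quasi-likelihood fit, no replicate block, Benjamini-Hochberg adjustment over all genes tested, called at adjusted p under 0.05. Each standard error is |log2 fold change| divided by the square root of its F statistic. Of the table lines, 116, 116 and 130 repeated a gene and were left out. Alternatives were DESeq2 1.42.0, its size factors, limma-voom (limma 3.58.1), total counts, other filters, halved counts, fewer groups, a replicate block and each library left out. Levels in each library are given for MCM7, CDC6, CDC45 and, per comparison, up to 10 called genes with the largest change and no overlap between groups, with others for context. The 53 genes and all lists were chosen with earlier results of these data known. Positions are from GENCODE 29 (GRCh38). Of the other gene lists, up to 4 genes each could be named. Depth limits precision little for most replication genes, but more for the lowest. In the parental libraries CCNE1 had 88 and 68 counts, GINS3 74 and 90 and POLE2 88 and 96, where counting noise is larger.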

Additional observations from a re-analysis of the deposited data

Results flagged for a closer look

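For 4 replication genes the response to BCI differed between 48 h and 4 h by the test of the difference itself (edgeR, adjusted over all genes). The response at 48 h minus that at 4 h was 0.88 for MCM4, 0.92 for CCNE2, 0.99 for E2F1 and 1.20 for UHRF1 on the log2 scale, with adjusted p = 0.0349, 0.017, 0.014 and 0.0458. None of these calls held when any 4 h library was left out, and the cause was not tested.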

How the results depend on the processing

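Counts of called replication genes moved with the processing as follows, as did the number of all genes called, and the cause was not tested. For BCI at 4 h (11) there were 30 with no filter on low counts, 22 with DESeq2, 21 with the replicate block and 41 with only the groups compared. Over all genes 2354 were called in the main fit and 3215, 2940, 2936 and 5691 in these settings, in the same order. For the difference between 48 h and 4 h (4) there were 28 with no filter, 16 with DESeq2 and 13 with the block, and for DMSO over time (13) 24 with no filter and 20 with the block. For RuxP (35) the replicate block gave 18, for FedP against parental (3) 0, and for FedP against RuxP (25) 0. DESeq2 gave 7 and 42 for the latter pair, and only the groups compared gave 1 and 48. Of all 15924 genes, DESeq2 called 2573 and 3680 for this pair, against 1055 and 222 in the main fit. The replicate block called 272 and 0 of all genes for the pair, and 324 for RuxP against 1026 in the main fit. The combination against BI-D1870 (3) fell to 1 with total counts. Replicate numbers were not taken to pair samples: correlations of deviations between same-numbered libraries were 0.59 for DMSO and BCI at 48 h and lay between -0.44 and 0.16 elsewhere. With RuxP numbers crossed, chosen after seeing the data, the block gave 42 for RuxP, 6 for FedP and 42 for FedP against RuxP.

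Leaving out 1 library gave 1 to 27 calls for BCI at 4 h, 0 to 37 for the difference, 4 to 30 for DMSO over time, 32 to 37 for BI-D1870, 32 to 40 for the combination, 1 to 4 for the combination against BI-D1870, 11 to 43 for RuxP, 0 to 19 for FedP and 0 to 48 for FedP against RuxP. The number of all genes called moved in these fits too. No called gene changed sign under any of these settings. With total counts the median log2 fold change of all genes was 0.14 for DMSO over time, 0.18 for FedP against parental and 0.19 for FedP against RuxP, against 0.04, 0.01 and 0.04 with TMM. Uncalled genes did: with BCI at 48 h, 44 of 53 turned without DMSO replicate 2 and 27 without BCI replicate 1. Over single libraries left out, the values of MCM7, CDC6 and CDC45 that turned were CDC6 with BCI at 4 h (-0.0022 to 0.036), at 48 h (-0.037 to 0.65) and in the difference (-0.054 to 0.63), MCM7 at 48 h (-0.71 to 1.07), CDC45 at 48 h (-0.011 to 0.57), CDC45 in DMSO over time (-0.38 to 0.20, and 0.051 with total counts) and CDC6 with the combination (-0.044 to 0.0012).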
